A study of Mus musculus with 258 samples.

Results

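Endothelial transcripts were followed here as a set of 35 genes, out of 40824 genes in the deposited count tables, in sorted cells of the fetal mouse pancreas. The 35 were chosen by symbol, as genes known for their use in blood vessel or lymphatic endothelium, with earlier results of these data known. All were found in both the bulk and the single-cell table. They comprised 12 receptors, 9 junction, surface or matrix proteins, 4 secreted factors, 7 transcription factors and 3 intracellular proteins. Bulk RNA-seq covered 3 groups of 2 libraries, sorted from E13.5 dorsal pancreas (embryonic day in the labels) as Ngn3-low or Ngn3-high cells of an Ngn3-GFP reporter, and from E17.5 pancreas as Ins1-RFP+ cells, which carry a red reporter under the insulin 1 gene. Single-cell RNA-seq covered single cells of the same 2 gates at E13.5, each its own library. These were 49 WT and 69 Pdx1-Cre; Jmjd3 fl/fl Ngn3-low cells, and 59 WT and 44 Pdx1-Cre; Jmjd3 fl/fl Ngn3-high cells. Jmjd3, listed as Kdm6b, is a histone H3K27 demethylase, and Pdx1-Cre is active in pancreatic epithelium. No Cre is named for the WT cells, and no embryo for any cell or library, so p-values measure the spread between the 2 libraries of a group, which may be technical.

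Blood vessels grow beside the pancreatic epithelium from the start of its development, and signals pass between the tissues in both directions. Endothelial cells are held together by VE-cadherin, PECAM1 and claudin 5, respond to VEGF and angiopoietins through receptor tyrosine kinases, and owe much of their gene expression to factors of the ETS and SoxF families. Ngn3-low cells are taken as mainly epithelial progenitors, Ngn3-high cells as committed to the endocrine lineage, and Ins1-RFP+ cells as young beta cells, and none of the 3 gates was set on an endothelial marker.

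The ETS core motif was looked for upstream of the members, because Erg, Fli1 and Ets1 among them encode ETS factors. RefSeq's promoter table (GRCm38.p6) held 17 of the 35 members. The letters AGGAAG or CGGAAG, on either strand, occurred in the 250 bases before the first listed start of 9 of these 17 (52.9%), against 39.2% of 32851 windows of that length over all genes. Both motifs share GGAAG and differ in their first base, so they cannot fall on the same position of a strand. Shown are windows of members in that table, which held neither Cdh5 nor Pecam1. Of its defining endothelial members whose window lies outside any annotated coding gene, the 2 of highest bulk Ngn3-low level are given, Tie1 and Cldn5. Also given are the windows of Egfl7 and Rasip1, the 2 members with such a window that epithelial single cells also read. Each is given 5′ to 3′ in the direction of its gene, with the motifs in capitals.
Tie1, chr4:118489850-118490099, minus strand: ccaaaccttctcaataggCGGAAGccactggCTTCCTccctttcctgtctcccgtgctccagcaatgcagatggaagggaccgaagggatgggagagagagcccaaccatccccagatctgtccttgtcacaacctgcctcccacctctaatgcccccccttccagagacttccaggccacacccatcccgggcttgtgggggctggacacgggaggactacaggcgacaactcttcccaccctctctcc
Cldn5, chr16:18776597-18776846, plus strand: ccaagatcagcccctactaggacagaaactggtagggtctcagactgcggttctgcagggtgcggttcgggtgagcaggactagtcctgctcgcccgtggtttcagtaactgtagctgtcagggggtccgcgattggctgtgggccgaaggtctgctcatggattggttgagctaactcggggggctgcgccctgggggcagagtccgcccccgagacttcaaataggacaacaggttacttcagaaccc
Egfl7, chr2:26580833-26581082, plus strand: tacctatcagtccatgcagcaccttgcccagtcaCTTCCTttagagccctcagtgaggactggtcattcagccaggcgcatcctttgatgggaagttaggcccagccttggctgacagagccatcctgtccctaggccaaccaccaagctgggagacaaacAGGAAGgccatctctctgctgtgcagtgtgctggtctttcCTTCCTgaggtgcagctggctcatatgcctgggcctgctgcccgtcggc
Rasip1, chr7:45627287-45627536, plus strand: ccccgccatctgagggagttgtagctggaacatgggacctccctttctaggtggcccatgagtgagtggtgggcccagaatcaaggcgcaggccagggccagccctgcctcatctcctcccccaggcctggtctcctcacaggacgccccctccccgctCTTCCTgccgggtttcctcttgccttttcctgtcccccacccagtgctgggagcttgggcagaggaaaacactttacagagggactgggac
Egfl7 held 3 motifs, Tie1 2, Rasip1 1 and Cldn5 none. The motif was therefore found upstream of members that few or no single cells read and of members that many epithelial cells read, and a match is a description of the letters only.

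The libraries and gates behaved as labelled in the genes that define them. Bulk libraries held 11957415 to 17760214 reads in genes, and single cells a median of 708409. Neurog3, the gene behind the Ngn3 gates, stood at 193 and 161 CPM (reads of a gene scaled to a fixed total of reads in genes) in the bulk Ngn3-low libraries and at 1191 and 1090 CPM in the Ngn3-high libraries. Kdm6b was lower in the Jmjd3-deleted than in the WT cells of both gates (55.5 against 131 CPM in Ngn3-low and 107 against 265 CPM in Ngn3-high sums), although the labels do not say which exons were deleted. Epcam, an epithelial surface protein, was at 10 CPM or more in 220 single cells, all but 1.

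All 35 endothelial transcripts fell from bulk Ngn3-low to bulk Ngn3-high cells. Together they summed to 1250 and 1346 CPM for Ngn3-low, 47.4 and 44.5 CPM for Ngn3-high, and 227 and 233 CPM for Ins1-RFP+. Every member passed the filter on low counts. At an adjusted p under 0.05 (edgeR quasi-likelihood test, Benjamini-Hochberg over 15684 genes), 35 of 35 were lower in Ngn3-high cells, where 30.2% of all genes tested were lower. Their median log2 fold change was -5.89 (range -10.72 to -1.11), beside -0.01 over all genes. Mmrn2 and Esm1 had no reads in either Ngn3-high library, and the median was -5.75 with these 2 at the bound that 3 reads over the group allow. Sox17, Esm1, Myct1 and Tal1 reached the filter's minimum of 0.682 CPM in both libraries of only 1 group, Ngn3-low, so a difference was built into their passing. In bulk samples, fewer cells of a type and less RNA per cell cannot be told apart.

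**Figure D1:**
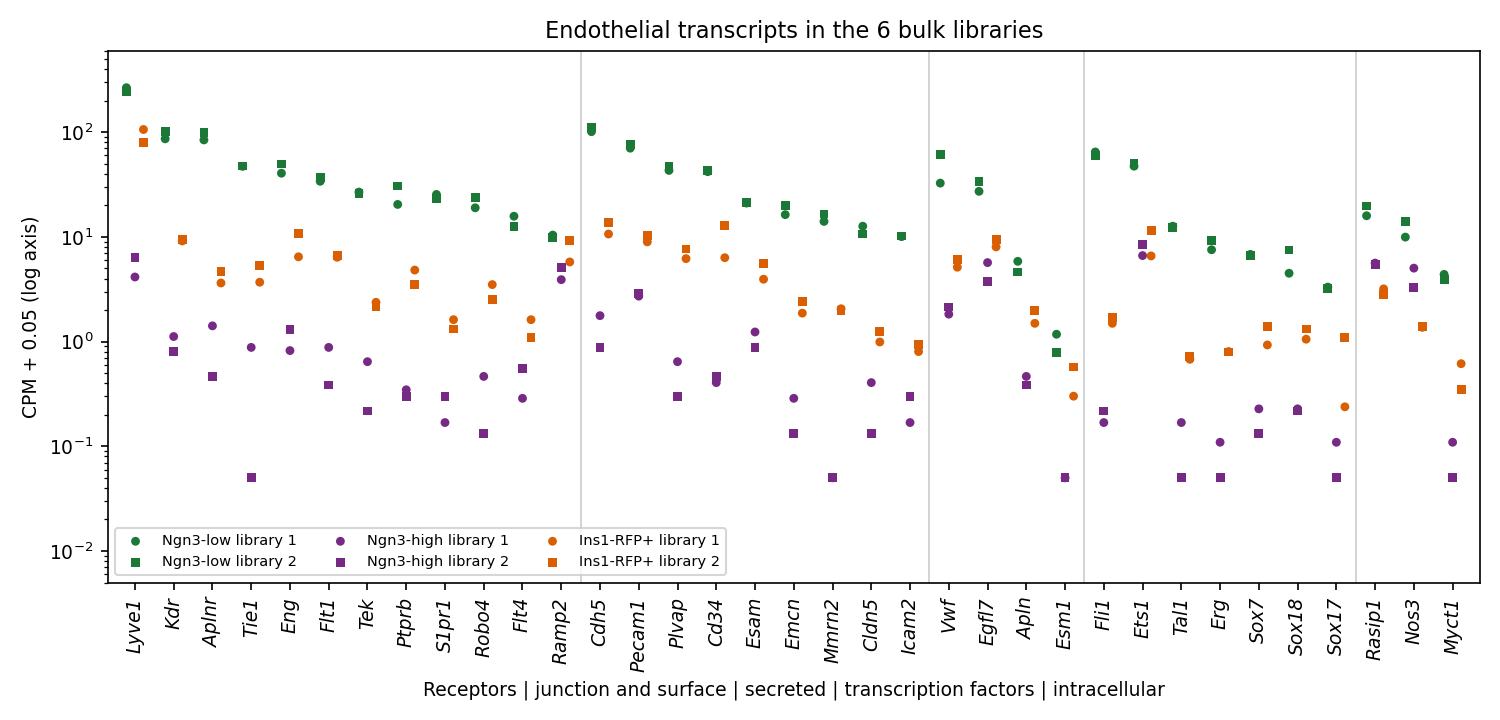
Level of each of the 35 endothelial transcripts in the 6 bulk libraries (vertical axis: CPM + 0.05, log scale). Points of one colour are the 2 libraries of a group, grey lines part the roles, and the Ngn3-low libraries lie above the Ngn3-high libraries for every transcript shown.

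Among the receptors, Kdr, the main VEGF receptor of endothelium, was at 86.4 and 101 CPM in the Ngn3-low libraries, 1.07 and 0.753 CPM in Ngn3-high and 9.11 and 9.39 CPM in Ins1-RFP+. Flt1, a VEGF receptor that also acts as a decoy, was at 33.95 and 37.1, then 0.830 and 0.334, then 6.34 and 6.64 CPM in the same order. For both genes the 3 groups formed 3 separate steps, with the Ins1-RFP+ libraries in the middle. Tek, the angiopoietin receptor, was at 26.8 and 25.9 CPM for Ngn3-low, 0.593 and 0.167 CPM for Ngn3-high and 2.32 and 2.09 CPM for Ins1-RFP+ libraries. Tie1, its co-receptor, was at 47.2 and 47.4 CPM, then 0.830 and 0 CPM, then 3.64 and 5.29 CPM. The second Ngn3-high library thus had no Tie1 read, which allows up to 0.251 CPM at 3 reads. Aplnr, the apelin receptor, was at 84.4 and 98.7 CPM for Ngn3-low, 1.36 and 0.418 CPM for Ngn3-high and 3.58 and 4.62 CPM for Ins1-RFP+ libraries. The log2 fold changes from Ngn3-low to Ngn3-high were -6.55 (SE 0.201) for Kdr, -5.75 (SE 0.306) for Flt1, -5.89 (SE 0.369) for Tek, -6.53 (SE 0.555) for Tie1 and -6.48 (SE 0.328) for Aplnr, with edgeR adjusted p of at most 1.95e-05. Flt4, Eng, Robo4, Ptprb and S1pr1, which encode a lymphatic VEGF receptor, a TGF-beta co-receptor, a guidance receptor, a receptor phosphatase and a sphingosine phosphate receptor, changed by -5.22 to -6.97. Their Ngn3-low means ran from 14.2 CPM for Flt4 to 45.1 CPM for Eng.

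Lyve1 and Ramp2 stood at the ends of the receptor group. Lyve1, the hyaluronan receptor of lymphatic vessels that some fetal macrophages and sinusoidal endothelium also carry, was at 266 and 244 CPM for Ngn3-low, 4.09 and 6.27 CPM for Ngn3-high and 106 and 80.1 CPM for Ins1-RFP+ libraries. Per kilobase of gene length it had the highest Ngn3-low level of all members, 97.8 RPKM, followed by Cdh5 at 26.6 RPKM, and it made up 19.6% of the members' summed CPM in Ngn3-low and 40.5% in Ins1-RFP+ libraries. Ramp2, a co-receptor for adrenomedullin, was at 10.4 and 9.73 CPM, then 3.86 and 5.02 CPM, then 5.71 and 9.17 CPM. It had the smallest fall of any member from Ngn3-low to Ngn3-high (log2 -1.11, SE 0.280, edgeR adjusted p 0.00909). Without the first Ngn3-high library its value was -0.95 and the call was lost (adjusted p 0.0663).

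The junction and surface group was led by Cdh5, which encodes VE-cadherin. It was at 101 and 111 CPM for Ngn3-low, 1.72 and 0.836 CPM for Ngn3-high and 10.6 and 13.7 CPM for Ins1-RFP+ libraries. Pecam1, an adhesion molecule of endothelium, platelets and leukocytes, was at 70.4 and 76.2, then 2.67 and 2.84, then 8.92 and 10.4 CPM. Its 2 libraries differed little in any group, and the groups did not overlap. Esam, an endothelial adhesion molecule, was at 21 and 21.3 CPM for Ngn3-low, 1.19 and 0.836 CPM for Ngn3-high and 3.89 and 5.52 CPM for Ins1-RFP+ libraries. Emcn, a sialomucin, was at 16.3 and 19.96, then 0.237 and 0.0836, then 1.82 and 2.39 CPM. Cldn5, the tight junction claudin whose upstream window is shown above, was at 12.6 and 10.6, then 0.356 and 0.0836, then 0.942 and 1.19 CPM. Emcn and Cldn5 were thus near or below the 3-read level of 0.178 to 0.251 CPM in the Ngn3-high libraries. The log2 fold changes from Ngn3-low to Ngn3-high were -6.21 for Cdh5 (SE 0.260), -4.65 for Pecam1 (SE 0.165), -4.26 for Esam (SE 0.286), -6.56 for Emcn (SE 0.398) and -5.47 for Cldn5 (SE 0.455), all with edgeR adjusted p of at most 1.71e-05. Plvap, which forms the diaphragms of fenestrae, Cd34 and Icam2 changed by -6.55, -6.69 and -5.70. Mmrn2, an endothelial matrix protein, fell from 14.02 and 16.5 CPM to no reads, at least 147-fold lower against 3 reads over the group.

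The 4 secreted factors fell less evenly. Egfl7, a vessel-wall factor whose gene hosts microRNA 126, was at 27.2 and 33.6 CPM for Ngn3-low, 5.63 and 3.68 CPM for Ngn3-high and 7.98 and 9.32 CPM for Ins1-RFP+ libraries. It changed by -2.60 (SE 0.242, edgeR adjusted p 3.36e-05) on the log2 scale from Ngn3-low to Ngn3-high. Vwf, the carrier of clotting factor VIII, was at 32.6 and 60.9 CPM in the Ngn3-low libraries, which gave it the widest gap between Ngn3-low libraries among the members (0.88 on the log2(CPM + 1) scale, beside a median gap of 0.14). It still changed by -4.51 (SE 0.335). Apln, the apelin ligand made by sprouting tip cells, changed by -3.67 from a mean of 5.19 CPM. Esm1, another tip cell product, was the lowest member in Ngn3-low, with 1.13 and 0.736 CPM and no Ngn3-high read, at least 8.94-fold lower. Its Ins1-RFP+ libraries held 0.251 and 0.522 CPM.

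The transcription factors ranged widely and included the largest fall after that of Mmrn2. Fli1, an ETS factor of endothelium and blood cells, had a mean of 62.4 ± 3.24 CPM (SD, n = 2) in Ngn3-low and 0.143 ± 0.0344 CPM (SD, n = 2) in Ngn3-high, a log2 change of -8.64 (SE 0.265, edgeR adjusted p 2.97e-07). Erg, an ETS factor more restricted to endothelium, was at 7.49 and 9.24 CPM for Ngn3-low, 0.0593 and 0 CPM for Ngn3-high and 0.754 and 0.746 CPM for Ins1-RFP+ libraries, with a change of -7.52 (SE 0.571) from Ngn3-low to Ngn3-high. Ets1, which is used in many cell types, was at 47.4 and 50.6 CPM, then 6.58 and 8.36 CPM, then 6.53 and 11.5 CPM, and changed by -2.63 (SE 0.256). Its Ngn3-high and Ins1-RFP+ libraries overlapped. The SoxF genes Sox7, Sox17 and Sox18, which act in arterial and lymphatic specification, changed by -5.42, -6.15 and -4.94 from means of 6.65, 3.23 and 5.95 CPM. Tal1, a factor of blood and endothelium, changed by -7.24.

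Of the intracellular proteins, Rasip1, which vessels need to open a lumen, was at 15.9 and 19.7 CPM for Ngn3-low, 5.58 and 5.44 CPM for Ngn3-high and 3.14 and 2.76 CPM for Ins1-RFP+ libraries. Nos3, the endothelial nitric oxide synthase, was at 9.91 and 13.9, then 4.98 and 3.26, then 1.32 and 1.34 CPM. Both declined in 2 steps, in contrast to the members whose Ins1-RFP+ libraries lay above the Ngn3-high ones. Their log2 changes from Ngn3-low to Ngn3-high were -1.60 (SE 0.211) and -1.42 (SE 0.291), with edgeR adjusted p of 2.67e-04 and 0.00313. Myct1 changed by -6.49 from a mean of 4.09 CPM.

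From Ngn3-high to Ins1-RFP+ libraries most members rose again. By the same edgeR test, 32 of 35 were higher in Ins1-RFP+ cells, where 26.1% of all genes tested were higher, and 2 of 35 were lower, where 24.9% of all genes were lower. The median log2 change was 3.17, or 3.05 with Mmrn2 and Esm1 at their bounds, beside 0.01 over all genes. Sox17, Esm1, Myct1 and Tal1 reached the filter's minimum in both libraries only in Ngn3-low, a group outside this comparison. With only the 2 groups compared in the fit, 31 members were tested, of which 27 were higher and 2 lower. Plvap (4.00), Cd34 (4.68) and Lyve1 (4.28) had the highest values among members with reads in both Ngn3-high libraries. Nos3 and Rasip1 fell by 1.56 (SE 0.335, adjusted p 0.00526) and 0.81 (SE 0.229, adjusted p 0.0178). Ets1 was not called (0.35, SE 0.261, adjusted p 0.293).

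Of these calls, 7 were lost when a library was left out, some with any of several libraries and with a log2 change about as large as before. Without the first Ngn3-high library the values were 1.48 for Flt4 (edgeR adjusted p 0.0672), 6.19 for Sox17 (0.0793), 5.55 for Esm1 (0.0774), 0.67 for Ramp2 (0.176) and -0.77 for Rasip1 (0.0627). Without the second they were 0.68 for Egfl7 (adjusted p 0.0545), 3.23 for Sox17 (0.113), 5.64 for Esm1 (0.0546), 1.01 for Ramp2 (0.063) and 2.80 for Myct1 (0.0614). Without the first Ins1-RFP+ library Myct1 stood at 2.90 (adjusted p 0.0814), and Ets1 gained a call (0.70, adjusted p 0.0188). Without the second the values were 0.48 for Ramp2 (adjusted p 0.213), 2.29 for Sox17 (0.195), 5.07 for Esm1 (0.0579) and -0.71 for Rasip1 (0.0659), and Ets1 stood at -0.08 (0.795). With all libraries the log2 changes were 1.97 for Flt4, 3.89 for Sox17, 5.59 for Esm1, 0.83 for Ramp2, 0.95 for Egfl7 and 3.46 for Myct1. Ramp2 was also not called without either Ngn3-low library (adjusted p 0.0577 and 0.0561), by DESeq2 (0.0525), by total-count scaling (0.0582) or with only the 2 groups fitted (0.0554), and Rasip1 was not called by DESeq2 (0.0516).

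The Ins1-RFP+ libraries remained below the Ngn3-low libraries for most members. By edgeR 33 of 35 were lower in Ins1-RFP+ than in Ngn3-low cells, where 35.5% of all genes tested were lower, and the median log2 change was -2.76 beside -0.08 over all genes. The largest falls were those of Fli1 (-5.17, SE 0.192), Aplnr (-4.32, SE 0.273) and Tal1 (-4.07, SE 0.374), and Lyve1 changed by only -1.28 (SE 0.181, adjusted p 3.22e-04). Tal1, Sox17, Myct1 and Esm1 reached the filter's minimum in both libraries only in Ngn3-low, so a difference was built into their passing here too. Ramp2 (-0.28, adjusted p 0.392) and Esm1 (-1.15, adjusted p 0.135) were not called. Ramp2 stood at 0.02 without the first Ins1-RFP+ library. Sox17 (adjusted p 0.0514) and Apln (0.0516) lost their calls without the first Ngn3-low library. The 3 bulk comparisons share libraries and are not independent of each other, and embryonic day and reporter differ together between the Ins1-RFP+ and the Ngn3 sorts.

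**Figure D2:**
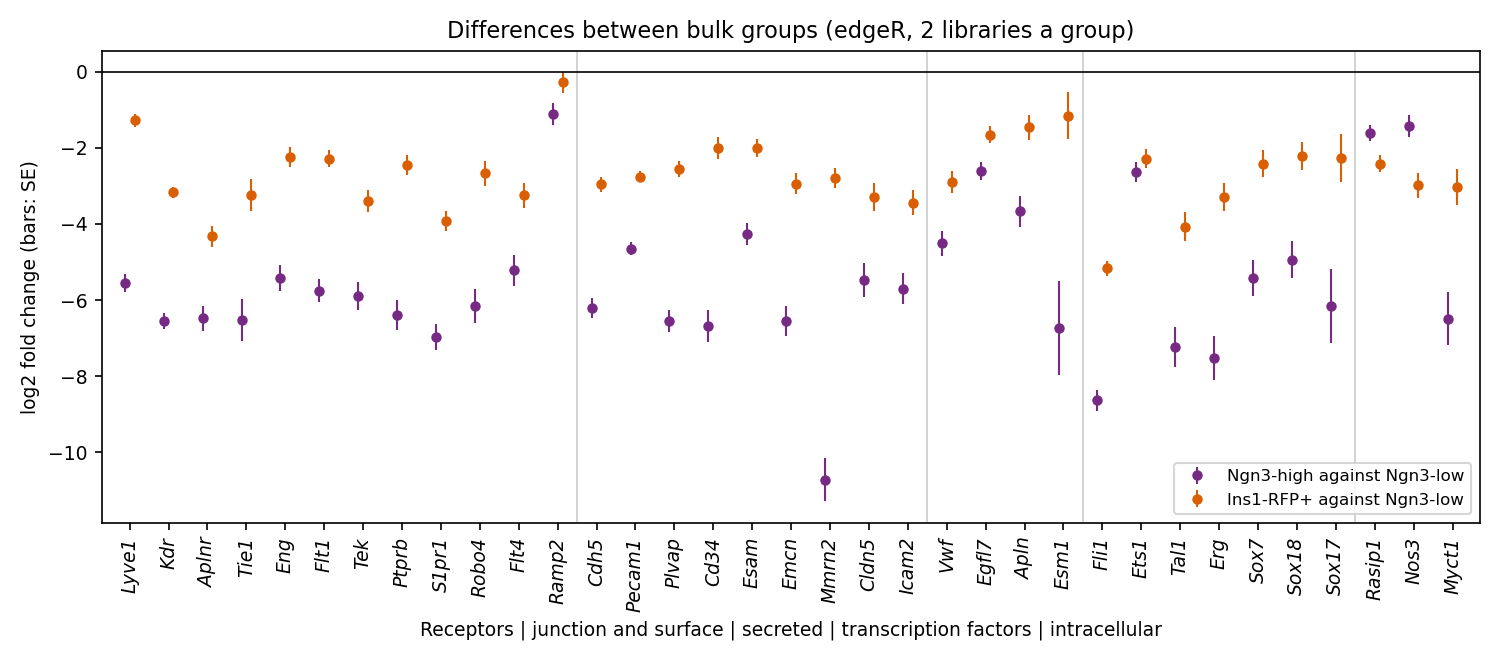
Log2 fold change of each endothelial transcript against the bulk Ngn3-low libraries (vertical axis; bars are the standard error from edgeR, 2 libraries a group), in the order of roles of the level plot. Most Ngn3-high values lie between -4 and -8 and most Ins1-RFP+ values between -2 and -4, while Rasip1 and Nos3 are lower in Ins1-RFP+ than in Ngn3-high cells.

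The macrophage list moved with the endothelial set, whereas the acinar, mesenchyme and red blood cell lists differed from it in Ins1-RFP+ libraries. The 14 macrophage genes measured were all lower in Ngn3-high than in Ngn3-low libraries by edgeR, with sums of 5026 and 4225 CPM for Ngn3-low, 28.6 and 13.3 CPM for Ngn3-high and 86.9 and 156 CPM for Ins1-RFP+. Mrc1, a mannose receptor that sinusoidal endothelium also carries, led that list with 1770 and 1535 CPM in Ngn3-low. All 14 were also lower in Ins1-RFP+ than in Ngn3-low libraries. By the same test, 2 of 8 acinar, 3 of 10 mesenchyme and mural and 4 of 7 red blood cell genes were lower in Ngn3-high than in Ngn3-low libraries. None was higher, where 30.2% of all genes tested were lower and 27.7% higher. The acinar and mesenchyme counts were thus near the share of all genes. From Ngn3-low to Ins1-RFP+, 7 acinar, 4 mesenchyme and mural and 5 red blood cell genes were higher, beside 30.4% of all genes. In that comparison 0, 1 and 1 were lower, beside 35.5% of all genes. The 10 acinar genes summed to 1375 CPM in the first and 24040 CPM in the second Ins1-RFP+ library, and the 11 mesenchyme and mural genes to 214 and 734 CPM, whereas the endothelial sums of these 2 libraries were 227 and 233 CPM. Lyve1, the largest part of these endothelial sums, was lower in the second library, and without it they were 121 and 153 CPM. The 6 epithelial genes kept sums of 1707 to 2809 CPM over all 6 libraries. The part of these lists in the endothelial differences was not tested.

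**Figure D3:**
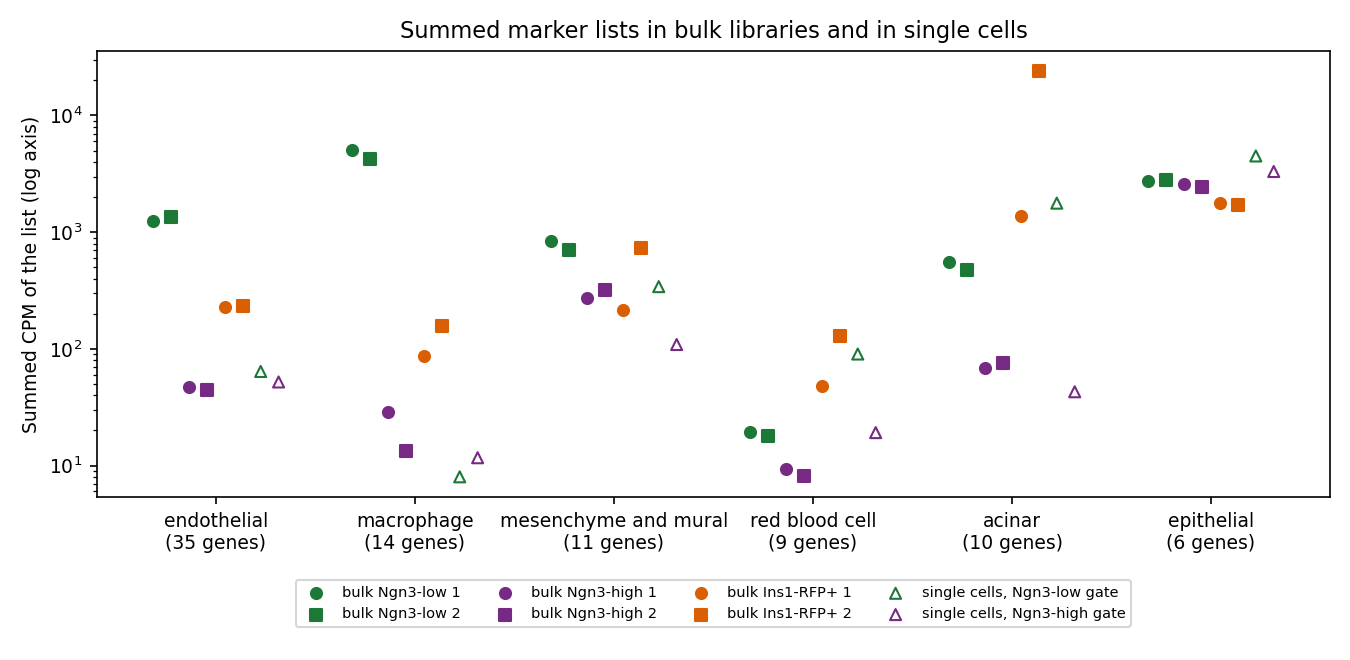
Summed CPM (log axis) of the endothelial set and of 5 marker lists in each bulk library (filled points) and in the summed single cells of each gate (open triangles). Endothelial and macrophage sums of the bulk Ngn3-low libraries stand far above the single cells of that gate, while epithelial sums lie within a narrow range.

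Single cells of the Ngn3-low gate read far less of these transcripts than the bulk libraries of that gate. Summed over the 35 genes, the Ngn3-low cells held 64.0 CPM (95% Poisson interval 62.4 to 65.8, counting error only), against 1298 ± 67.9 CPM (SD, n = 2) in bulk, a ratio of 20.3. By genotype the sum was 68.4 CPM (65.6 to 71.4) in WT and 61.3 CPM (59.2 to 63.5) in Jmjd3-deleted cells of the gate. With 1 sample per single-cell group and different library chemistry (poly(A) selection in bulk, Smart-seq2 in cells), no test of bulk against cells could be made. On the log2 scale of CPM + 1, 31 members were at least 4-fold higher in bulk, against 11.04% of the 15176 genes at 1 CPM or more in either assay, a level that 34 of the 35 members reached. The members' median log2 ratio was 3.82, beside 0.06 over those genes. With 5 CPM added instead, 18 members remained past 4-fold.

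By role, the gap was widest for the receptors, whose bulk sum was 315 times the single-cell sum, then for the junction and surface group (55.3) and the transcription factors (21.9). It was 3.41 for the 3 intracellular proteins and 2.14 for the secreted factors. On the CPM + 1 scale Lyve1 had the highest ratio of any member (log2 7.87), with 255 CPM in bulk and 8 reads, or 0.0947 CPM, over all 118 Ngn3-low cells. Cdh5 had 106 CPM in bulk and no read in these cells, at least 2980-fold higher in bulk when set against 3 reads over the gate. Aplnr had 91.6 CPM and no read, at least 2580-fold by the same bound. Kdr had 93.8 CPM and 2 reads. Emcn, Cldn5, Erg, Flt4, Robo4, Esm1, Icam2 and Myct1 had no read in the Ngn3-low cells either. These 8, Cdh5 and Aplnr are also the 10 members without a read in any single cell.

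The lowest ratios in the Ngn3-low gate, on the CPM + 1 scale, belonged to Egfl7 (log2 -0.22), Rasip1 (0.80) and Esm1 (0.95). For Esm1 the ratio reflects the added CPM, since bulk held 0.931 CPM and the cells none. Egfl7 stood at 30.4 ± 4.54 CPM (SD, n = 2) in bulk and 35.6 CPM in the cells, and Rasip1 at 17.8 ± 2.71 CPM (SD, n = 2) and 9.78 CPM. Egfl7 supplied 55.6% and Rasip1 15.3% of all endothelial CPM in the Ngn3-low cells, against 2.34% and 1.37% in the bulk libraries. Without the 6 members that epithelial cells read, Egfl7, Rasip1, Ramp2, Esam, Nos3 and Lyve1, the bulk sum was 64 times that of the cells. The 6 were picked by their reads in these same cells, so a higher ratio without them is partly built in.

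In the Ngn3-high gate the summed levels of bulk and single cells were close, while single members differed. The cells held 52.1 CPM (95% Poisson interval 50.5 to 53.7) and the bulk libraries 46.0 ± 2.09 CPM (SD, n = 2), a ratio of 0.883. None of the 12 members at 1 CPM or more was at least 4-fold higher in bulk, against 7.18% of 14533 genes. With 1 CPM added, members at low bulk levels cannot reach 4-fold even without a read in the cells, Cdh5 at 1.28 CPM among them. The count was thus partly set by the members' low levels. With 0.1 CPM added instead of 1, 7 members were past 4-fold, with Jmjd3-deleted cells alone 1 was, and 2 members were at least 2-fold higher. On the CPM + 1 scale Ets1 had the highest ratio (log2 1.53) and Egfl7 the lowest (-1.39, 4.66 CPM in bulk and 13.8 CPM in cells). Of the members, 18 had no read in the Ngn3-high cells, and against 3 reads over the gate Cdh5 was at least 32.3-fold, Kdr at least 23-fold, Aplnr at least 22.5-fold and Flt4 at least 9.34-fold higher in bulk, at bulk levels of 0.369 to 1.28 CPM. Mmrn2, without a read in either bulk Ngn3-high library, had 86 reads (1.13 CPM) over the Ngn3-high cells. Without the 6 members that epithelial cells read, the ratio of sums was 2.32, a rise that is again partly built in.

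**Figure D4:**
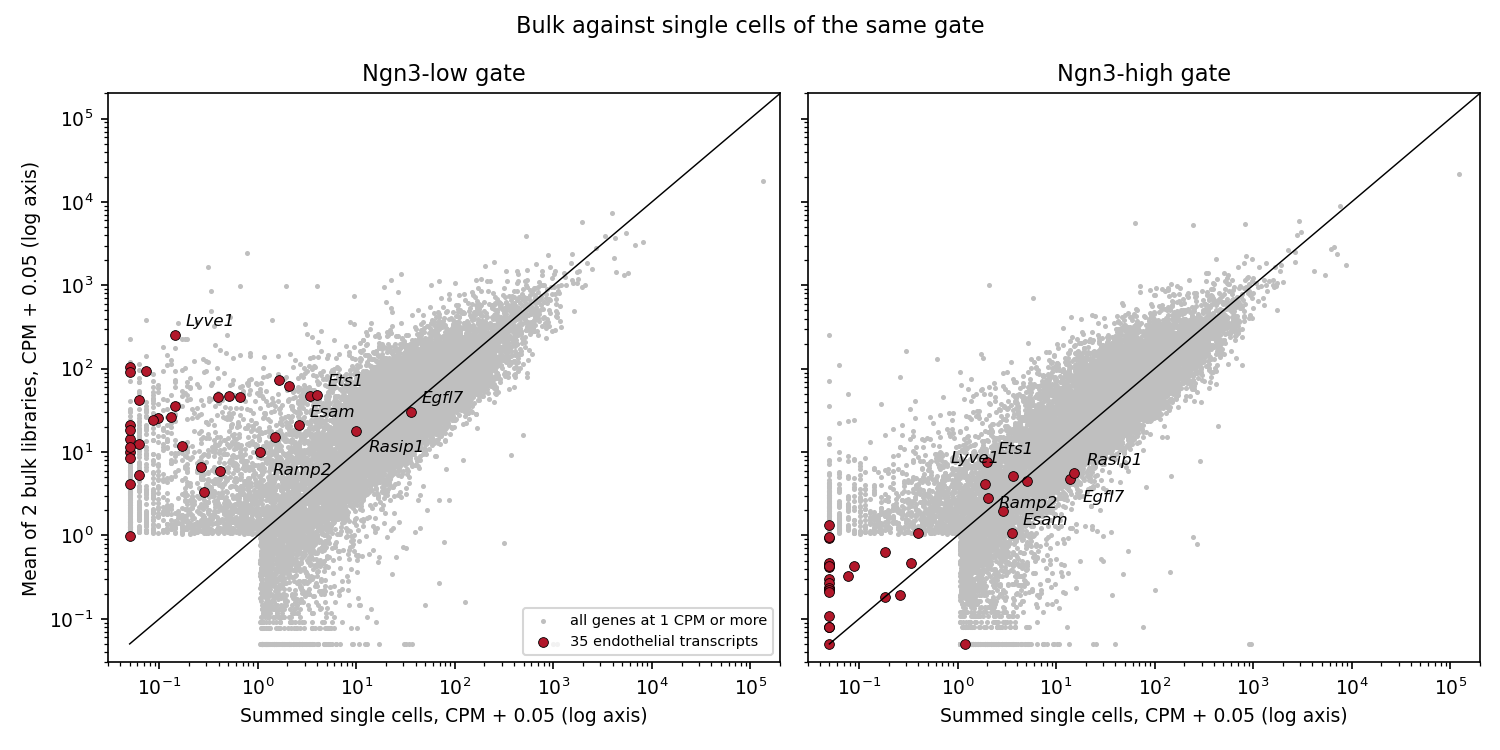
Mean bulk level (vertical) against the level in summed single cells (horizontal) of each gate, both as CPM + 0.05 on log axes, for all genes at 1 CPM or more (grey) and the 35 endothelial transcripts (red). In the Ngn3-low gate the endothelial transcripts form a band at the upper left, apart from Egfl7 and Rasip1 near the line of equality. In the Ngn3-high gate they lie low, some near the line and others off it on either side, such as Cdh5 above and Mmrn2 below.

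No single cell had an endothelial profile. Of the 10 defining genes (Pecam1, Kdr, Flt1, Tek, Tie1, Cdh5, Esam, Emcn, Cldn5 and Erg), 202 cells held none at 10 CPM, 18 held 1 and 1 WT Ngn3-low cell held 2, namely Pecam1 and Flt1. The number of cells with 3 or more was 0, which allows a share of up to 1.36% over all cells of both gates. For the Ngn3-low groups taken alone, 0 cells allow up to 6.12% of WT and 4.35% of Jmjd3-deleted cells. Over all 35 members, 37 cells held none at 10 CPM, 96 held 1, 62 held 2, 19 held 3 and 7 held 4. At the median depth of the 4 groups 10 CPM corresponds to 6.09 to 7.39 reads. With a threshold of 1 CPM, 4 cells held at least 3 of the 10 defining genes. The macrophage list summed to 8.02 CPM over the Ngn3-low cells and 11.7 CPM over the Ngn3-high cells.

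Epithelial cells read 6 of the 35 members, counted as members at 10 CPM or more in at least 10% of the Epcam-positive cells of 1 or more groups: Egfl7, Rasip1, Ramp2, Esam, Nos3 and Lyve1. Another 19 members were at 10 CPM in no cell and 7 in 1 to 5 cells, and Ets1, Mmrn2 and Fli1 were in 13, 7 and 6 of 220 cells. Esam and Nos3 met the rule only through 6 of 58 WT Ngn3-high cells each (10.3%, 3.89 to 21.2%). At 1 CPM, 13 members met the 10% rule. With a share of 5% instead, 9 members did, Ets1, Mmrn2 and Fli1 among them. With the epithelial gene Cdh1 required as well as Epcam, 5 did, without Nos3.

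Egfl7 was the member most cells read. It was at 10 CPM in 40 of 49 WT Ngn3-low cells (81.6%, 95% Clopper-Pearson interval 68.0 to 91.2%), 52 of 69 Jmjd3-deleted Ngn3-low cells (75.4%, 63.5 to 84.9%), 17 of 58 WT Ngn3-high cells (29.3%, 18.1 to 42.7%) and 23 of 44 Jmjd3-deleted Ngn3-high cells (52.3%, 36.7 to 67.5%). Its summed level was 41.0, 32.3, 10.02 and 18.9 CPM in the same groups. Both Ngn3-low groups were thus above both Ngn3-high groups, the order of the bulk libraries. Cell titles carry a further number whose meaning the labels do not give. Over these numbers Egfl7 ranged from 16.6 to 55.9 CPM in WT Ngn3-low, 28.7 to 47.8 CPM in Jmjd3-deleted Ngn3-low, 8.90 to 10.6 CPM in WT Ngn3-high and 13.54 to 29.1 CPM in Jmjd3-deleted Ngn3-high cells. The Egfl7 ranges of the 2 WT groups did not overlap, nor did those of the 2 Ngn3-high genotypes, whereas those of the Jmjd3-deleted Ngn3-low and Ngn3-high cells overlapped. With 1 sample a group no test applies. Egfl7 overlaps the microRNA genes Mir126a and Mir126b within its span at chromosome 2, 26581083 to 26592682 (GRCm38.p6).

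Over all cells of a gate, Rasip1 was read by a larger share of Ngn3-high than of Ngn3-low cells, against the order in bulk. It was at 10 CPM in 14 of 49 WT and 23 of 69 Jmjd3-deleted Ngn3-low cells (28.6% and 33.3%), and in 27 of 58 WT and 18 of 44 Jmjd3-deleted Ngn3-high cells (46.6% and 40.9%), with intervals that overlap. Its summed level was 9.93 and 9.69 CPM in the Ngn3-low and 17.05 and 12.6 CPM in the Ngn3-high groups. By the number in the cell titles, the Rasip1 ranges of the 2 gates overlapped in both genotypes. Within title number 5 WT Ngn3-low cells (11.87 CPM) stood above WT Ngn3-high cells (10.15 CPM). Within title number 1, and in Jmjd3-deleted cells of number 5, Ngn3-high cells stood higher. In the bulk libraries Rasip1 was lower in Ngn3-high cells, and the reversal was not tested. Rasip1, at chromosome 7, 45627537 to 45639092 (GRCm38.p6), overlaps the long non-coding gene A030001D20Rik, and the strand setting of the counting is not given in the sources used here.

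In their sums over all cells of a gate, Ramp2, Nos3 and Lyve1 also stood higher in Ngn3-high than in Ngn3-low cells, at lower levels and not in every title number. Ramp2 had no read in WT Ngn3-low cells, which allows up to 0.0928 CPM at 3 reads, and stood at 1.63 CPM in Jmjd3-deleted Ngn3-low, 5.56 CPM in WT Ngn3-high and 4.37 CPM in Jmjd3-deleted Ngn3-high cells. Among cells of title number 1, Ramp2 was at 4.16 CPM in Jmjd3-deleted Ngn3-low cells, above 1.41 CPM in WT and 3.29 CPM in Jmjd3-deleted Ngn3-high cells. Nos3 was at 10 CPM in 0 of 118 Ngn3-low cells, in 6 of 58 WT Ngn3-high cells and in 2 of 44 Jmjd3-deleted Ngn3-high cells, none of them of title number 1. By title number Lyve1 ranged from 0.994 to 8.27 CPM in WT Ngn3-high and from 0 to 4.87 CPM in Jmjd3-deleted Ngn3-high cells, against at most 0.606 CPM in Ngn3-low cells. Lyve1 was likewise at 10 CPM in no Ngn3-low cell, in 8 of 58 WT Ngn3-high cells (13.8%, 6.15 to 25.4%) and in 3 of 44 Jmjd3-deleted Ngn3-high cells (6.82%, 1.43 to 18.7%). Its Ngn3-high level was 3.62 CPM in the cells and 5.18 ± 1.54 CPM (SD, n = 2) in bulk, so the assays stood close in this gate and 234-fold apart, on the CPM + 1 scale, in the Ngn3-low gate. Esam was read by 2 of 49, 6 of 69, 6 of 58 and 0 of 44 cells in the order WT and Jmjd3-deleted Ngn3-low, then WT and Jmjd3-deleted Ngn3-high, at 1.58, 3.16, 6.13 and 0 CPM. By title number Esam ranged from 0 to 7.94 CPM within WT Ngn3-low and from 0 to 7.63 CPM within WT Ngn3-high cells, a range as wide as the differences between groups.

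**Figure D5:**
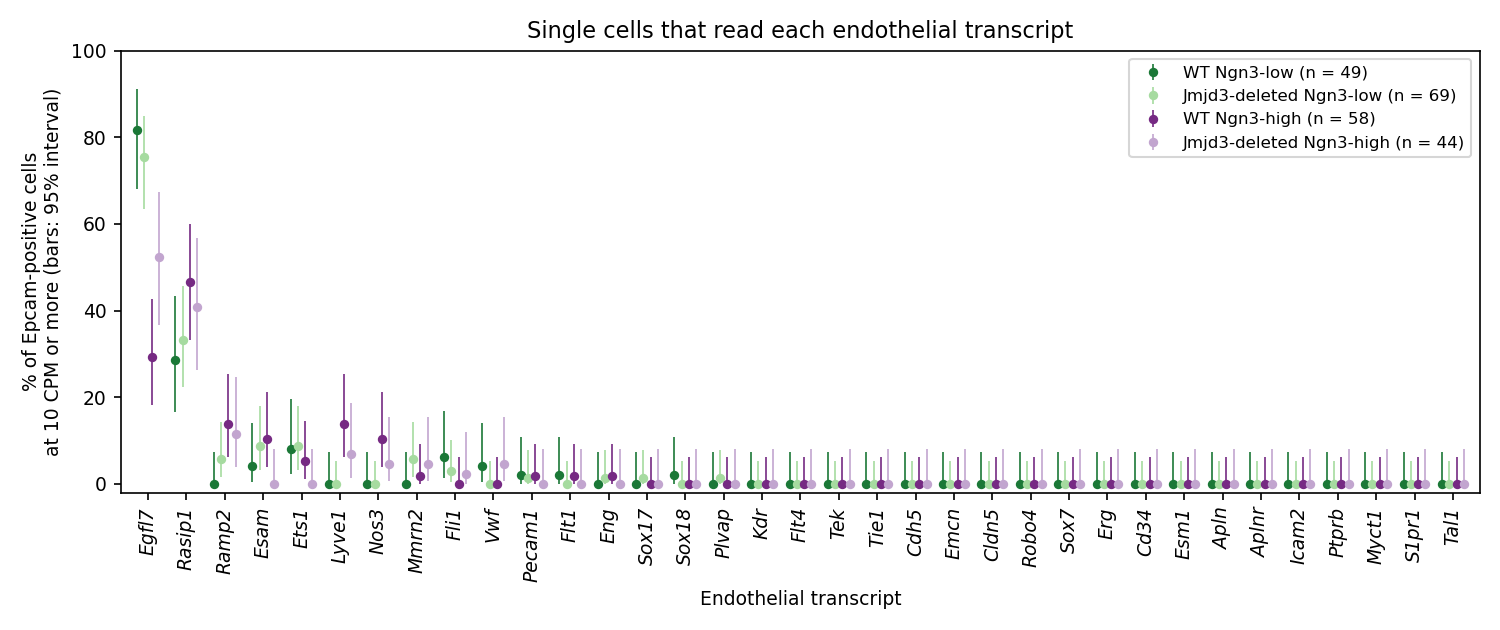
Share of Epcam-positive single cells (vertical axis, %) at 10 CPM or more for each endothelial transcript, in 4 groups, with exact 95% binomial intervals that cover counting error only. Egfl7 and Rasip1 stand above all others, and Kdr, Cdh5, Emcn, Cldn5 and Erg are at 0 in every group.

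The 6 members that epithelial cells read had smaller median differences between the bulk groups than the others, with wide overlap. From Ngn3-low to Ngn3-high their median log2 change was -2.10, against -6.21 for the other 29, and from Ngn3-low to Ins1-RFP+ it was -1.83 against -2.90. Among the 6, Lyve1 (-5.56) and Esam (-4.26) fell more to Ngn3-high than Ets1 (-2.63) and Apln (-3.67), which are not among them. To Ins1-RFP+, Nos3 (-2.98) and Rasip1 (-2.42) changed more than Apln (-1.46) and Cd34 (-2.01). These medians are descriptions of lists chosen with the values in view.

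Further vessel genes were also mostly lower in Ngn3-high libraries, with more varied values in the other comparisons. Of 20 further endothelial genes measured, 18 were lower in Ngn3-high than in Ngn3-low libraries by edgeR (30.2% of all genes) and 2, Dll4 and Bcl6b, were higher (27.7% of all genes). From Ngn3-high to Ins1-RFP+, 9 were higher (26.1% of all genes), 4 lower (24.9% of all genes) and 7 not called. From Ngn3-low to Ins1-RFP+, 1 was higher (30.4% of all genes), 17 lower (35.5% of all genes) and 2 not called. Their bulk sum in the Ngn3-low gate was 3.4 times that of the single cells, against 20.3 times for the members. Dll4, a Notch ligand of arterial and tip cells that endocrine progenitors also make, was at 27.5 and 24.7 CPM for Ngn3-low and at 137 and 93.3 CPM for Ngn3-high libraries, and was at 10 CPM in 50 of 59 WT Ngn3-high cells. Ephb4, a venous ephrin receptor that pancreatic epithelium also carries, was at 196 and 192 CPM in bulk Ngn3-low and at 120 and 144 CPM in the WT and Jmjd3-deleted Ngn3-low cells. Cd93 was at 80.4 and 87.0 CPM in bulk Ngn3-low but at 0.835 and 1.50 CPM in the same cells. Of 14 vascular ligands measured, 3 were higher and 9 lower in Ngn3-high than in Ngn3-low libraries (27.7% and 30.2% of all genes). Against Ngn3-high, 10 were higher and 1 lower in Ins1-RFP+ libraries (26.1% and 24.9% of all genes). Against Ngn3-low, 5 were higher and 6 lower in Ins1-RFP+ libraries (30.4% and 35.5% of all genes), not far from those shares. Vegfa, the ligand of Kdr and Flt1, was at 261 and 284 CPM for Ngn3-low and 240 and 234 CPM for Ngn3-high libraries. It was not called between these 2 groups (edgeR adjusted p 0.46). In Ins1-RFP+ libraries Vegfa was at 736 and 643 CPM. It was higher there by edgeR than in Ngn3-low (log2 1.51, adjusted p 1.72e-05) and Ngn3-high (1.62, adjusted p 3.43e-05). In the single cells Vegfa stood at 13.8 to 23.7 CPM, below the bulk level of both gates.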

How the data were processed

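Bulk and single-cell gene counts were deposited by the authors as whole reads per gene. Per the submitters' processing notes, reads were processed with TopHat2 2.1.0, Bowtie2, HTSeq 0.6.0 and, for bulk, DESeq 1.20.0, on mm10. The strand setting is not given in the sources used here. Per the labels' protocols, bulk libraries were made from poly(A) RNA of sorted cells with a directional kit, and cells by Smart-seq2 with ERCC spike-ins. The 92 ERCC rows were left out, and CPM and RPKM (by the table's gene lengths) were computed from the counts. Bulk groups were compared with edgeR 4.0.16 (R 4.3.3, TMM, filterByExpr, quasi-likelihood, all 6 libraries in 1 fit, Benjamini-Hochberg threshold 0.05). The script was tested on simulated data. Depth was 11957415 to 17760214 reads per bulk library and 380478 to 1949839 per cell. The 2 libraries of each bulk group differed by more than sampling noise. Each cell is its own library, so no barcodes are shared, and the 4 single-cell groups are 1 sample each, without a test. Sums carry exact Poisson and shares exact Clopper-Pearson intervals (95%), and reads without molecular identifiers mean that these and the 3-read limits cover counting error only. Alternatives were DESeq2 1.42.0, other scaling, no filter, the 2 groups alone, a replicate block, leaving out libraries, other added CPM and thresholds, and single genotypes. Members and lists were chosen with earlier results of these data known. Values in every bulk library are given for the 10 defining members, the members epithelial cells read, any member not lower in Ngn3-high cells (there was none) and the 3 highest and lowest bulk to single-cell ratios in the Ngn3-low gate on the CPM + 1 scale, and other lists name at most 4 genes, those of highest bulk level, with Bcl6b named after its value was seen. All 35 members had positions in RefSeq's gene table and 14 overlap another gene there. The deposited RPKM tables and 31 ChIP-seq samples were not used here.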

Additional observations from a re-analysis of the deposited data

How the results depend on the processing

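The count of members lower in Ngn3-high than in Ngn3-low libraries (35), higher in Ins1-RFP+ than in Ngn3-high (32) and lower in Ins1-RFP+ than in Ngn3-low (33) stayed within 1.5 times under each of the 12 alternatives run. The pairing check gave correlations of 0.0671, 0.093 and 0.0303 between the deviations of same-numbered libraries, so the numbers are only shared, and with the replicate block the counts were 35, 32 and 33. Over all members and alternatives, 1, 21 and 2 single calls were lost in the 3 comparisons, by 1, 7 and 2 members, and 1 was gained. With a library left out, Ets1 ranged from -0.08 to 0.70 (Ins1-RFP+ against Ngn3-high) and Ramp2 from -0.63 to 0.02 (Ins1-RFP+ against Ngn3-low), and both changed sign. The ratio of summed members in the Ngn3-low gate was 19 with WT cells only and, by alternatives added after seeing the data, 16.3 without Lyve1 and 64 without the members that epithelial cells read. The Ngn3-high ratio was 0.823 with WT cells, 0.978 with Jmjd3-deleted cells, 0.801 to 0.911 when a library or title number was left out, 0.842 without Lyve1 and 2.32 without the members that epithelial cells read. Those members were picked by reads in the same cells, so the higher ratios without them are partly built in. The number of members at least 4-fold higher in bulk was 18 in the Ngn3-low gate with 5 CPM added. In the Ngn3-high gate it was 7 with 0.1 CPM added, 1 with Jmjd3-deleted cells only and 2 at a 2-fold threshold. Cells with several defining members numbered 1 at a minimum of 2 genes and 4 at a 1 CPM threshold, and members read by epithelial cells numbered 13 at 1 CPM. The cause of these shifts was not tested, apart from the genes or cells left out. At 3 reads the bulk libraries resolve 0.169 to 0.251 CPM, which bounds the Ngn3-high levels of the lowest members.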
